A study of Mus musculus with 13 samples.

Results

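The mitochondrial ribosome is built from RNAs that mitochondrial DNA encodes and from proteins that nuclear genes encode and the organelle imports. The genes described here are those nuclear protein genes, taken by name as every single mouse gene symbol that starts with Mrpl or Mrps and a digit, without pseudogene symbols. By that rule 71 of 22180 genes were members, 43 with Mrpl names and 28 with Mrps names. RefSeq lists 78 symbols of this form, and the other 7 (Mrpl30, Mrpl33, Mrpl41, Mrpl43, Mrpl44, Mrpl53 and Mrps6) were found here only on probe sets annotated to more than 1 gene and were not used. Where a gene had several probe sets, the brightest over the 13 arrays stood for it.

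Male C57Bl/6J mice gave the RNA, taken from the S1 segment of the proximal tubule and hybridised to Affymetrix whole-transcript arrays, 1 array per sample. In the LPS/LPS group (5 arrays), mice received 0.25 mg/kg of lipopolysaccharide (LPS), the endotoxin of Gram-negative bacteria, and 5 mg/kg of it 24 h later. Samples of this group were taken 24 h after the 5 mg/kg dose. In the LPS group (4 arrays), mice received a single intraperitoneal dose of 5 mg/kg for 24 h. In the control group (4 arrays), mice received saline. The labels do not say that each array came from its own animal, so p-values measure the spread between these samples, which may be technical.

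The mitochondrial ribosome translates the proteins that mitochondrial DNA encodes, all of them subunits of the oxidative phosphorylation complexes. The proximal tubule is rich in mitochondria and depends on oxidative phosphorylation for sodium-driven reabsorption. The large subunit of the ribosome holds the peptidyl transferase centre and the exit tunnel, and the small subunit holds the messenger RNA and the decoding centre. Many of the proteins descend from bacterial ribosomal proteins, and the others are found only in mitochondria. Of the 71 members, 45 encode large subunit proteins, including Mrps18a and Mrps30, which carry a small subunit name but sit in the large subunit. Another 25 encode small subunit proteins. Mrps36 is now known as a subunit of the 2-oxoglutarate dehydrogenase complex and is not part of the ribosome. Proteins of bacterial type made up 42 members and proteins of mitochondrial type 28, Mrps36 aside.

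Promoter sequence was one property that the choice of members did not use. RefSeq windows of 300 bases, 250 before and 50 after a gene's start in the build GRCm38.p6, were at hand for 62 of the 71 members (68 windows). The members lay on 17 chromosomes. In 33.8% of member windows the start of another gene lay on the opposite strand, upstream and within 500 bases, against 11.3% of the 20611 windows of all genes tested. Such head-to-head partners were found for 21 members, and the pairs named here are examples. Mrpl46 and Mrps11 were partners of each other (starts 42 bases apart). Mrps12 lay head to head with Sars2, the mitochondrial seryl-tRNA synthetase (147 bases), and Mrpl47 with the complex I subunit gene Ndufb5 (308 bases). Mrpl32 lay so with the proteasome gene Psma2 (205 bases), Mrpl14 with Tmem63b (131 bases) and Mrpl18 with Tcp1 (238 bases). The share of partners with a mitochondrial role was not counted.

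Motifs were counted on both strands. The ETS motif CCGGAAG, which GABPA (NRF2) binds, was in 33.8% of member windows against 11.4% of all windows. The YY1 motif AAGATGGC was in 17.6% of member windows against 3.11% of all windows. The motif of NRF1, a transcription factor of nuclear genes for mitochondria, was read as GCGC and TGCGC with 1 base of any kind between them and was in 16.2% of member windows against 6.46% of all windows. Member windows also held more CpG pairs, with a median of 21 against 13. Among windows with at least 15 CpG, a restriction chosen after seeing the data, the member and overall shares were 35.8% and 19.5% for ETS, 18.9% and 4.77% for YY1, and 18.9% and 12.6% for NRF1. Head-to-head starts were then in 41.5% and 20.1% of windows. The GC box GGGCGG was in 54.4% of member windows against 46.5% of all windows, but in 60.4% against 77.9% among CpG-rich windows (at least 15 CpG). CCAAT was in 39.7% of member windows against 37.7% of all windows, and TATAAA in 7.35% against 12.3%. Among the CpG-rich windows the shares were 37.7% against 35.4% for CCAAT and 3.77% against 4.43% for TATAAA. Some genes have several windows that overlap. Counted by gene, CCAAT was in 38.7% of members against 41.6% of all genes, and in 34.7% against 37.5% among CpG-rich windows. By gene the shares were 37.1% against 12.7% for ETS, 19.4% against 3.64% for YY1 and 17.7% against 7.24% for NRF1. A match describes letters and does not show binding, and GC content was not matched between the sets.

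**Figure D1:**
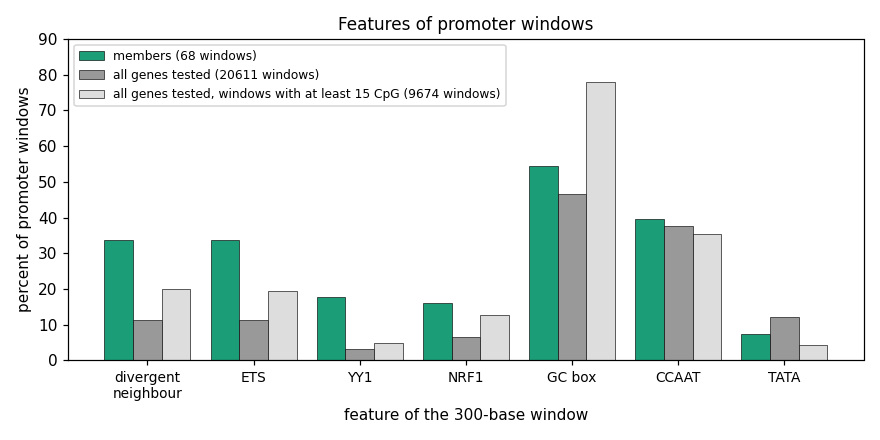
Percent of 300-base promoter windows (vertical axis) that hold each feature (horizontal axis), for the 68 windows of the members, all 20611 windows of the genes tested, and all windows with at least 15 CpG pairs. Bars are shares without error bars. Member bars stand above both other bars for head-to-head neighbours, ETS (33.8% each), YY1 (17.6%), NRF1 (16.2%) and CCAAT (39.7%). The member bar for the GC box stands below that of the CpG-rich windows.

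The windows below are those of members that lead the comparisons between groups, with that of Mrps11 as an example of a start shared head to head and of a gene whose level hardly varied. They are given on the strand of the gene, and capitals mark matches to the ETS, YY1 or NRF1 motif in either orientation.
Mrpl24 promoter, chr3:87919294-87919593, plus strand: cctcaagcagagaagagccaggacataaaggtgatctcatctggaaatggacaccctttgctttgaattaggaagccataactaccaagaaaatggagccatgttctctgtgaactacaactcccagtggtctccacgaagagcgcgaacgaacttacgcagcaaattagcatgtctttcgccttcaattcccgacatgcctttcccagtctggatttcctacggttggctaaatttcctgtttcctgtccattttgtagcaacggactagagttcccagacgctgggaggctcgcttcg
Mrpl39 promoter, chr16:84735195-84735494, minus strand: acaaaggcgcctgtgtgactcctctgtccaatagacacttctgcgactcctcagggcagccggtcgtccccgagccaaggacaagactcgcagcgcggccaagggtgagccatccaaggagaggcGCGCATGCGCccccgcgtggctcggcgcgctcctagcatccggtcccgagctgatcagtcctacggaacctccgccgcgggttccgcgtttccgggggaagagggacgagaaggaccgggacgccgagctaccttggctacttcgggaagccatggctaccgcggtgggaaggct
Mrpl32 promoter, chr13:14612988-14613287, minus strand: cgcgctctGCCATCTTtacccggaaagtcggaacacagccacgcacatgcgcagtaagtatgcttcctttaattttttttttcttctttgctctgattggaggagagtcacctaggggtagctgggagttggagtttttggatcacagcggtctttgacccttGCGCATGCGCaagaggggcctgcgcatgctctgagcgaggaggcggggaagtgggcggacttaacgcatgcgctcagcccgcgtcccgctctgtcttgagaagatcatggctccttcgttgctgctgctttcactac
Mrps16 promoter, chr14:20393441-20393740, minus strand: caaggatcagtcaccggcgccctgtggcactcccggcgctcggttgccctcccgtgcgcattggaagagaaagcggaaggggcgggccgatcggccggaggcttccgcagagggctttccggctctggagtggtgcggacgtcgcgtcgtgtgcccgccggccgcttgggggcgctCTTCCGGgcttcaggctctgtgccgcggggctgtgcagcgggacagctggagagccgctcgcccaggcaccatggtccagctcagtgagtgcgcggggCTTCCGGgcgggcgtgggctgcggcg
Mrps11 promoter, chr7:78782881-78783180, plus strand: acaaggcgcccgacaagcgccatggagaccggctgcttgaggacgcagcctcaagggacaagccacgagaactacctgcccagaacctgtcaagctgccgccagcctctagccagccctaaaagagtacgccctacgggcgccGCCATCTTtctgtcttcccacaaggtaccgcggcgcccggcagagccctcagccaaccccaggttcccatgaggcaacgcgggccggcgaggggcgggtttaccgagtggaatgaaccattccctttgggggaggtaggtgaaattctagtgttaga

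The Mrpl24 window held none of the 3 motifs, the Mrpl39 window an NRF1 match, and the Mrpl32 window a YY1 match and an NRF1 match. The Mrps16 window shown held 2 ETS matches, while a second RefSeq window of this gene held none of the 3 motifs, and the Mrps11 window, which overlaps that of Mrpl46, a YY1 match. Members split by motif were compared as medians of the log2 difference between LPS/LPS and LPS, without a test. The 23 members with an ETS match stood at -0.14 and the 39 without one at -0.051. The 12 members with a YY1 match stood at -0.027 and the 50 without one at -0.14, and the 11 members with an NRF1 match stood at 0.0083 and the 51 without one at -0.14. Without LPS replicate 3, an array that stood apart, the medians with and without a match were -0.026 and 0.00041 for ETS, -0.019 and -0.013 for YY1, and -0.018 and -0.0080 for NRF1. Between LPS/LPS and control they were -0.050 and -0.064 for ETS, -0.15 and -0.044 for YY1, and 0.029 and -0.065 for NRF1. In all arrays of LPS/LPS vs LPS the order was the opposite of this for ETS and YY1. Without LPS replicate 3 the order was the opposite for ETS and NRF1.

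Levels are RMA log2 values, and the median over all genes lay between 3.68 and 3.81 in the 13 arrays. A background reference was set at 4.77, below which the mean levels of 95% of 1105 olfactory receptor genes lay. Of 12 S1 and proximal tubule markers 7 had a mean above it, led by the phosphate transporter Slc34a1 at 10.09, while the S1 glucose transporter Slc5a2 lay below it at 4.27. None of the podocyte, endothelial, macrophage or neutrophil markers had a mean above it, while 1 of 4 S3 markers, 1 of 9 markers of other nephron segments (the thick ascending limb marker Umod, at 5.17), 2 of 6 fibroblast and mural markers and 1 of 5 lymphocyte markers did. The array of LPS replicate 3 stood apart. The summed log2 level of 9 markers of other nephron segments was 49.7 there, against 37.4 in the next highest of the 13 arrays, with Umod at 8.36 and the thick ascending limb cotransporter Slc12a1 at 6.79. Values without this array are given beside the comparisons that use the LPS group.

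A mean above the background reference was found for 15 of the 71 members (21.1%), against 9.95% of all genes. These were Mrpl10, Mrpl12, Mrpl17, Mrpl24, Mrpl28, Mrpl37, Mrpl40, Mrpl52, Mrpl55, Mrps9, Mrps11, Mrps12, Mrps16, Mrps18b and Mrps26. Mrpl10 and Mrpl12 encode the stalk of the large subunit, where translation factors bind, and Mrps12 encodes a protein of the decoding centre. The lowest of the 15 were Mrpl10 at 4.79 and Mrpl17 at 4.81, and the nearest below the reference was Mrpl4 at 4.75, a protein of the exit tunnel wall. The other 56 members cannot be told from background by this reference, and changes of dim probe sets may be compressed toward 0. The 4 lowest probe sets were those of Mrpl42 (2.07), Mrpl32 (2.69), Mrps21 (2.82) and Mrps14 (2.91). Probe sets differ in affinity, so a higher value in one gene does not mean more transcript than in another.

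**Figure D2:**
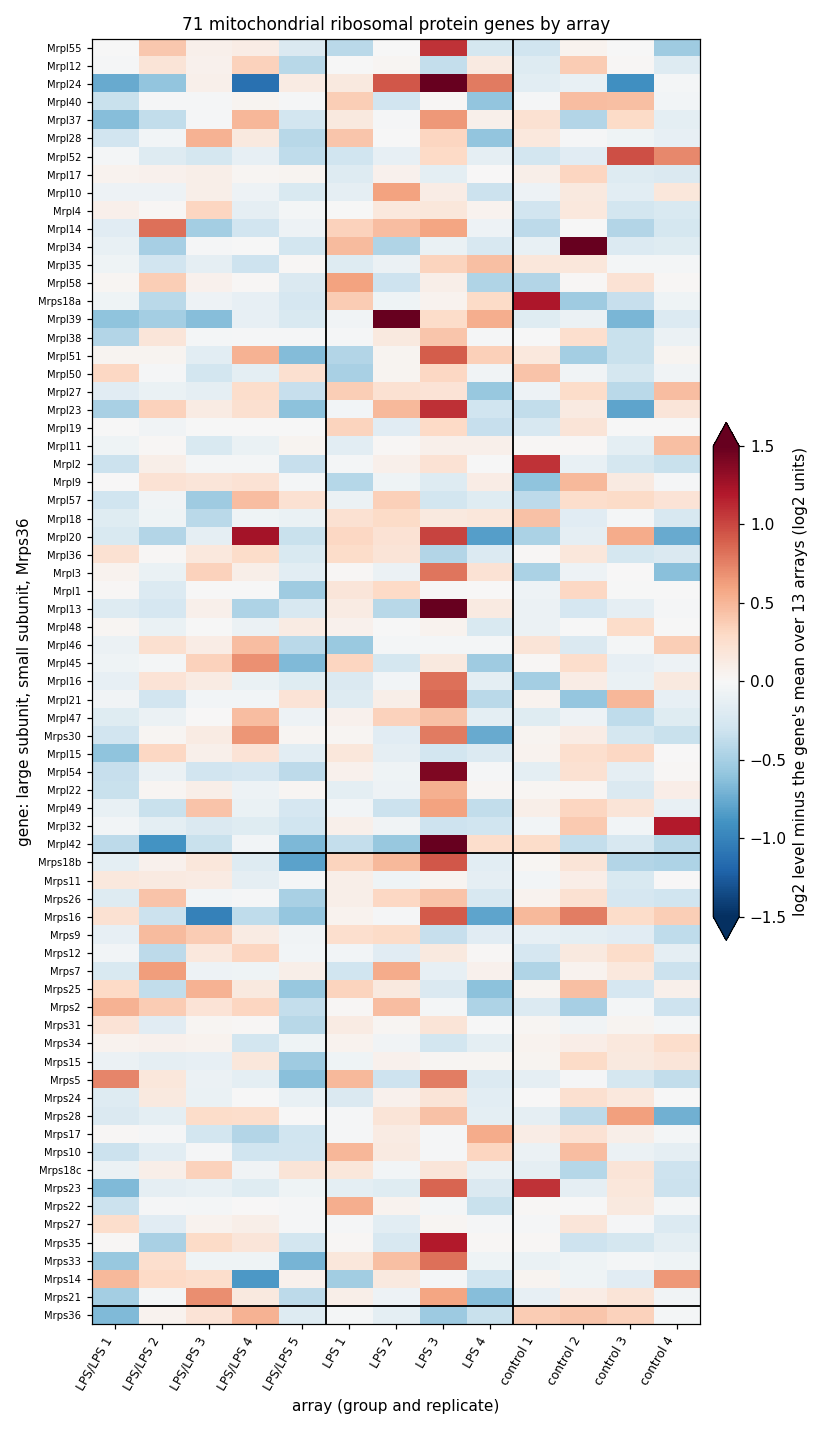
Log2 level minus the gene's own mean over 13 arrays (colour, capped at -1.5 and 1.5) for the 71 members (down the page: large subunit, small subunit and Mrps36, each ordered by mean level) in each array (LPS/LPS, LPS and control from left to right). The column of LPS replicate 3 holds many of the deepest red cells, and its value for Mrpl42 (5.80) lies beyond the end of the colour scale.

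The members' spread over the 13 arrays ran from a standard deviation (SD) of 0.12 in Mrps11 to 1.17 in Mrpl42, with a median of 0.32, against a median of 0.28 over all genes. Mrps11, a protein of the platform of the small subunit, had 5.65, 5.63, 5.61, 5.36 and 5.46 in the LPS/LPS arrays, 5.58, 5.44, 5.53 and 5.36 in the LPS arrays, and 5.45, 5.59, 5.27 and 5.49 in the control arrays. The groups overlapped throughout, and each of its differences between groups was under 0.10. Mrpl17 (SD 0.15) and Mrps12 (SD 0.21) were the next steadiest of the brighter members. Their differences between groups were at most 0.12 in size, with standard errors (SE) of 0.13 to 0.17. Mrpl42, a large subunit protein of mitochondrial type, owed its spread to 1 array: it had 5.80 in LPS replicate 3, and 1.17 to 2.35 in the other 12 arrays. Its log2 difference between LPS and control was 0.95 with that array and -0.036 without it.

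Several members had their highest value in LPS replicate 3. That array held the highest value of 20 of the 71 members (28.2%), against 8.90% of all genes. The median deviation of the members from their own means was 0.19 there, against -0.055 over all genes, and 0.30 for the members above the background reference. Mrpl54, a large subunit protein, had 4.35 in that array and 2.55 to 3.17 in the others, Mrpl13, a large subunit protein of bacterial type, had 5.24 against 3.06 to 3.67, and Mrps35, a small subunit protein, had 4.14 against 2.46 to 3.23. These 3 were picked after seeing their values. The markers of S1 and proximal tubule deviated there by a median of 0.83 and those of other nephron segments by 0.89, and their part in the members' values was not tested.

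LPS/LPS replicate 5 and LPS replicate 4 lay at the other end. Each held the lowest value of 13 of the 71 members (18.3%), against 12.0% of all genes in LPS/LPS replicate 5 and 13.2% in LPS replicate 4. The members' median deviation was -0.21 in LPS/LPS replicate 5 and -0.14 in LPS replicate 4. LPS/LPS replicate 5 held the highest value of 0 members, against 8.36% of all genes. The genes above the background reference also lay low in that array, with a median deviation of -0.13. Within the LPS group alone the members' median deviation therefore ran from -0.14 to 0.19, a wider range than that of the members' median differences between groups given below, -0.12 to 0.056.

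**Figure D3:**
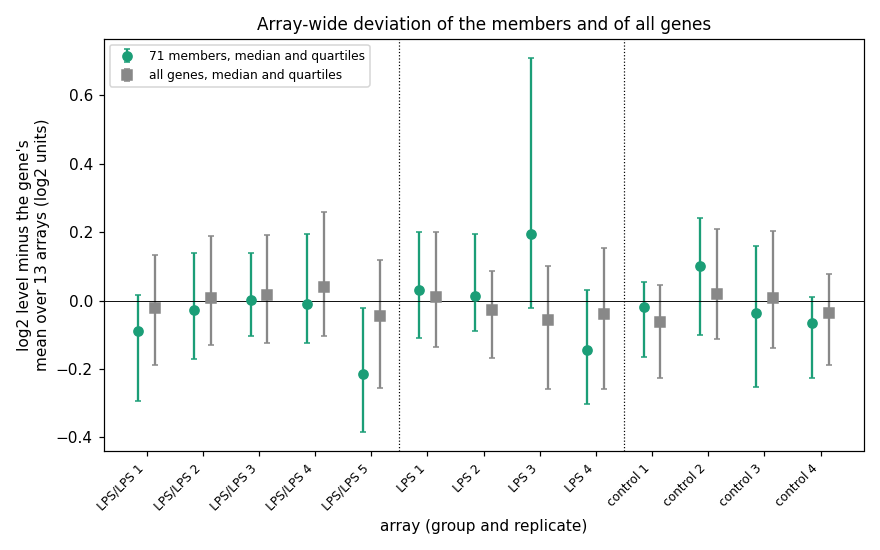
Median deviation of log2 levels from each gene's mean (vertical axis, log2 units) in each array (horizontal axis: LPS/LPS, LPS, control) for the 71 members (circles) and all 22180 genes (squares), with bars from the lower to the upper quartile of genes. The members' median was 0.19 in LPS replicate 3, -0.14 in LPS replicate 4 and -0.21 in LPS/LPS replicate 5.

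All 13 arrays entered a single linear model (limma), with p-values adjusted by Benjamini-Hochberg over 22180 genes. No member passed an adjusted p of 0.05 in any of the 3 comparisons. Over all genes, 0 passed between LPS and control (0%), 2 between LPS/LPS and control (0.00902%), and 14 between LPS/LPS and LPS (0.0631%, all lower in LPS/LPS). The F-test over the 3 groups called 0 members, against 0.0631% of all genes, and 6 members had an unadjusted p under 0.05 (8.45%, against 6.91% of all genes). These were Mrpl24, Mrpl32, Mrpl39, Mrps10, Mrps16 and Mrps33. The SEs of the members' differences ran from 0.12 to 0.68 on the log2 scale. A difference larger than its SE was not thereby told from 0. Even the difference of -1.33 in Mrpl24 between LPS/LPS and LPS had a limma adjusted p of 0.177. The lack of called members therefore does not show a lack of change. In tissue RNA, fewer cells of a type and less RNA per cell cannot be told apart. The comparisons share arrays: both comparisons with control use the same 4 control arrays, and both comparisons with LPS use the same 4 LPS arrays, with opposite signs.

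Mrpl24 had the lowest p of all members. It encodes the counterpart of a bacterial protein that starts assembly of the large subunit. Its log2 levels were 4.38, 4.54, 5.21, 4.02 and 5.25 in the LPS/LPS arrays, 5.29, 6.07, 6.75 and 5.92 in the LPS arrays, and 4.98, 5.03, 4.22 and 5.10 in the control arrays. All 4 LPS values lay above every value of both other groups, although the lowest of them exceeded the highest LPS/LPS value by little. The difference between LPS/LPS and LPS was -1.33 (SE 0.31, limma adjusted p = 0.177), that between LPS and control 1.17 (SE 0.33, adjusted p = 0.510), and that between LPS/LPS and control -0.15 (SE 0.31, adjusted p = 0.991). Without LPS replicate 3 the difference between LPS/LPS and LPS was -1.08 and that between LPS and control 0.93. Without LPS replicate 1 the difference between LPS/LPS and LPS was -1.57 with a limma adjusted p of 0.0497, the only refit that called a member.

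Mrpl39, a large subunit protein of mitochondrial type, followed the same order. It had 3.67, 3.76, 3.64, 4.15 and 4.04 in the LPS/LPS arrays, 4.22, 6.77, 4.54 and 4.82 in the LPS arrays, and 4.10, 4.18, 3.58 and 4.07 in the control arrays. The LPS values again lay above all others, but LPS replicate 2 was far above the other 3. The difference between LPS/LPS and LPS was -1.24 (SE 0.39, limma adjusted p = 0.378) and was -0.68 without LPS replicate 2. That between LPS and control was 1.11 (SE 0.41, limma adjusted p = 0.685) and 0.54 without that array. Its mean level of 4.27 lay below the background reference.

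**Figure D4:**
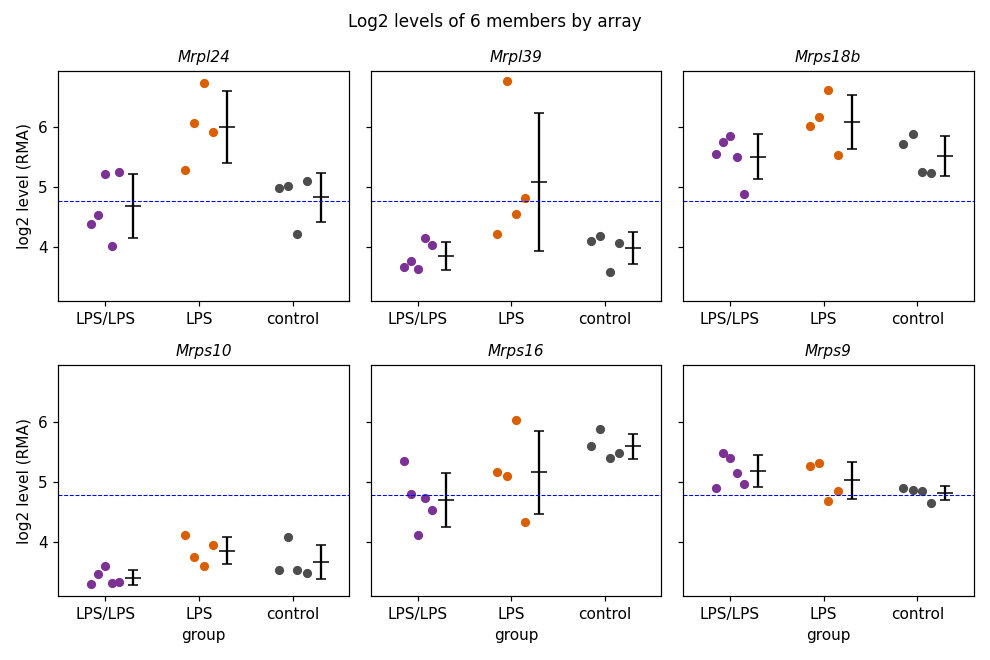
Log2 levels (vertical axis) of 6 members in each array, by group (horizontal axis: LPS/LPS, LPS, control); points are arrays, bars show the mean ± SD, and the dashed line is the background reference of 4.77. The 4 LPS points of Mrpl24 and Mrpl39 lie above all points of both other groups, and the LPS/LPS points of Mrps16 lie below the control points.

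Between LPS and control, 43 of the 71 members had a positive difference, and their median was 0.056, against -0.017 over all genes. An unadjusted p under 0.05 was found for 8 members (11.3%), against 6.43% of all genes. Of these, 6 were higher in LPS (8.45%, against 3.49% of all genes) and 2 lower (2.82%, against 2.95%). Groups did not overlap for 2 members (2.82%), Mrpl24 and Mrpl39, against 3.15% of all genes. Both were higher in LPS (against 1.55% of all genes), and 0 members were lower (against 1.60%). Without LPS replicate 3 the median was -0.015 with 34 of 71 positive, and 3 members had an unadjusted p under 0.05 (against 5.80% of all genes). Groups then did not overlap for 3 members (4.23%, against 5.78% of all genes), Mrpl24 and Mrpl39 higher and Mrps16 lower in LPS. The 12 S1 and proximal tubule markers had a median difference of 0.13 with 7 positive, and of -0.31 with 3 positive without that array, and the 9 markers of other nephron segments 0.27 with 8 positive, and -0.030 with 4 positive without it. The part of those markers in the members' values was not tested.

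Among the large subunit genes, Mrpl14 averaged 4.94 ± 0.29 in LPS arrays and 4.33 ± 0.20 in control arrays (SD, n = 4 each), a difference of 0.61 (limma adjusted p = 0.719). Mrpl3, whose bacterial counterpart also starts large subunit assembly, had 3.60, 3.49, 4.38 and 3.80 in LPS arrays and 3.11, 3.50, 3.59 and 2.95 in control arrays. The groups overlapped, and the difference of 0.53 became 0.34 without LPS replicate 3. Mrpl32 is a large subunit protein that the m-AAA protease cleaves before it joins the ribosome, as known from yeast and mouse. It had 2.77, 2.63, 2.38 and 2.39 in LPS arrays and 2.65, 3.08, 2.65 and 3.88 in control arrays. Control replicate 4 was high, and the difference of -0.52 (limma adjusted p = 0.733) was -0.25 without it.

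Among the small subunit genes, Mrps18b was one of 3 members, with Mrps18a and Mrps18c, that descend from a single bacterial gene. It averaged 6.09 ± 0.45 in LPS arrays and 5.53 ± 0.33 in control arrays (SD, n = 4 each), a difference of 0.57 (SE 0.25, limma adjusted p = 0.752). Mrps18a differed by 0.10 (SE 0.29, and -0.099 without control replicate 2) and Mrps18c by 0.22 (SE 0.16). The dimmer probe sets of Mrps18b and Mrps18c, which were not used, gave -0.026 and -0.30 between LPS and control. Mrps34, a small subunit protein of mitochondrial type, had 4.20, 4.09, 3.86 and 3.99 in LPS arrays and 4.20, 4.25, 4.31 and 4.40 in control arrays, a difference of -0.25 (SE 0.13, limma adjusted p = 0.771). LPS replicate 1 and control replicate 1 met at the edge of the 2 groups. A brighter probe set annotated to both Nme3 and Mrps34 (mean 4.78), which was not used, gave -0.0033 between LPS and control. Mrps36, the gene outside the ribosome, averaged 3.14 ± 0.23 in LPS arrays and 3.68 ± 0.21 in control arrays (SD, n = 4 each), a difference of -0.54 (limma adjusted p = 0.719).

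Between LPS/LPS and control, 28 of the 71 members had a positive difference, with a median of -0.050 against 0.028 over all genes. An unadjusted p under 0.05 was found for 6 members (8.45%), against 4.70% of all genes. Of these 2 were higher in LPS/LPS (2.82%, against 2.62% of all genes) and 4 lower (5.63%, against 2.07%). Groups did not overlap for 2 members (2.82%), against 1.54% of all genes: Mrps9 was higher in LPS/LPS (against 0.839% of all genes) and Mrps16 lower (against 0.699%). The lowest adjusted p of any member in this comparison was 0.987. Beside this, 6 of 12 S1 and proximal tubule markers had an unadjusted p under 0.05, all lower in LPS/LPS (against 2.07% of all genes). The 12 markers had a median difference of -0.59, with all 12 negative and 0 called by limma. Their summed log2 level was 53.5 to 61.6 in LPS/LPS arrays and 61.6 to 70.9 in control arrays. Their part in the members' values was not tested here either.

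Mrps16, a small subunit protein whose loss causes a human mitochondrial translation deficiency, had 5.34, 4.79, 4.10, 4.73 and 4.53 in the LPS/LPS arrays, 5.16, 5.10, 6.04 and 4.32 in the LPS arrays, and 5.60, 5.88, 5.39 and 5.49 in the control arrays. Every LPS/LPS value lay below every control value, by little for LPS/LPS replicate 1, and the LPS values spanned both. The difference between LPS/LPS and control was -0.89 (SE 0.29, limma adjusted p = 0.987). Its second, dimmer probe set gave -0.050, and the mean of both gave -0.47.

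Mrps9, a small subunit protein of bacterial type, had 4.89, 5.49, 5.40, 5.15 and 4.96 in the LPS/LPS arrays, against 4.89, 4.87, 4.85 and 4.64 in the control arrays. The lowest LPS/LPS array and the highest control array differed only beyond the second decimal, and the difference was 0.37 (SE 0.17, limma adjusted p = 0.987). Mrps2, another small subunit protein, averaged 4.46 ± 0.34 (SD, n = 5) in LPS/LPS arrays and 3.98 ± 0.20 (SD, n = 4) in control arrays, and these groups overlapped. Mrps15 had a difference of -0.31, and its LPS/LPS arrays held 3.96, 3.91, 3.92, 4.21 and 3.51 against 4.08, 4.33, 4.19 and 4.22 in control arrays. LPS/LPS replicate 4 lay inside the control range. Mrpl32 had a difference of -0.55, which was -0.28 without control replicate 4.

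Between LPS/LPS and LPS, 24 of the 71 members had a positive difference, with a median of -0.12 against 0.049 over all genes. An unadjusted p under 0.05 was found for 8 members (11.3%), against 8.61% of all genes. All 8 were lower in LPS/LPS (11.3%, against 4.49% of all genes in that direction) and 0 higher (against 4.13% of all genes). They were Mrpl18, Mrpl24, Mrpl39, Mrpl54, Mrps10, Mrps17, Mrps18b and Mrps33. Groups did not overlap for Mrpl18, Mrpl24, Mrpl39 and Mrpl54, which is 4 members (5.63%) against 2.40% of all genes. All 4 were lower in LPS/LPS (against 1.30% of all genes) and 0 higher (against 1.10%). Without LPS replicate 3 the median was -0.0080 with 34 of 71 positive, 5 members had an unadjusted p under 0.05 (against 6.17% of all genes), and 0 passed the limma adjusted p of 0.05. Groups then did not overlap for 5 members (7.04%, against 3.68% of all genes), the same 4 and Mrps10, all lower in LPS/LPS (against 1.95% of all genes). Mrpl54 had a difference of -0.62, or -0.27 without that array.

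Markers of cell types were set beside the members in this comparison as well. Of 12 S1 and proximal tubule markers, 4 had an unadjusted p under 0.05, all lower in LPS/LPS (against 4.49% of all genes). The 12 markers had a median difference of -0.48 with all 12 negative and 0 called by limma. Without LPS replicate 3 the 12 markers had a median of -0.26, with 3 positive. Their summed log2 level was 53.5 to 61.6 in LPS/LPS arrays and 55.0 to 76.0 in LPS arrays. The 9 markers of other nephron segments had a median of -0.16 with 2 positive, and of 0.071 with 6 positive without that array. The part of both lists in the members' values was not tested.

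Mrpl18, a protein of the central protuberance of the large subunit, had 3.50, 3.62, 3.27, 3.62 and 3.58 in the LPS/LPS arrays and 3.91, 3.96, 3.83 and 3.85 in the LPS arrays. The LPS values were tight and all above the LPS/LPS values, with a difference of -0.37 (SE 0.14, limma adjusted p = 0.490). The control values of 4.12, 3.52, 3.65 and 3.44 spanned both. Mrps10, a small subunit protein of bacterial type, had 3.29, 3.46, 3.59, 3.31 and 3.32 in the LPS/LPS arrays and 4.11, 3.74, 3.59 and 3.94 in the LPS arrays. LPS/LPS replicate 3 and LPS replicate 3 met at the boundary, and the difference was -0.45 (SE 0.15, limma adjusted p = 0.443), or -0.54 without LPS replicate 3. Mrps18b had 5.55, 5.75, 5.86, 5.50 and 4.89 in the LPS/LPS arrays and 6.03, 6.18, 6.63 and 5.54 in the LPS arrays. Its groups overlapped through LPS replicate 4, and the difference of -0.58 (limma adjusted p = 0.514) was -0.40 without LPS replicate 3.

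The 3 members with the lowest p among positive differences in this comparison were Mrpl9 (0.26), Mrps36 (0.25) and Mrpl46 (0.22), with limma adjusted p-values of 0.723, 0.765 and 0.776. Single arrays moved all 3: Mrpl9 was at 0.17 and Mrpl46 at 0.085 without LPS replicate 1, and Mrps36 at 0.11 without LPS/LPS replicate 4. Mrpl9 had 3.76, 3.96, 3.92, 3.97 and 3.71 in the LPS/LPS arrays and 3.32, 3.69, 3.55 and 3.86 in the LPS arrays. LPS replicate 4 lay inside the LPS/LPS range. Mrpl46, a large subunit protein whose start lies 42 bases from that of Mrps11, held 1 identical value of 3.40 in LPS replicates 2, 3 and 4 and in control replicate 3. A value shared by 3 or more arrays was found in 24 of the 71 members (33.8%), against 29.2% of all genes.

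**Figure D5:**
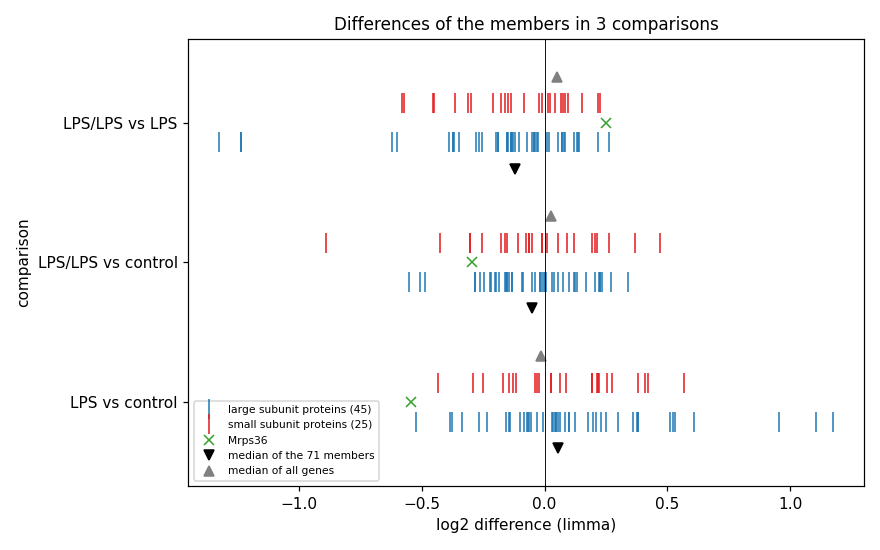
Log2 differences from limma (horizontal axis) for each member in the 3 comparisons (vertical axis), with small subunit proteins above large subunit proteins in each, Mrps36 as a cross, and the medians of the 71 members (triangle down) and of all genes (triangle up). The members' medians were -0.12 for LPS/LPS vs LPS, -0.050 for LPS/LPS vs control and 0.056 for LPS vs control, and members lay on both sides of 0 in each.

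Split by subunit, the 45 large subunit genes had median differences of -0.13 between LPS/LPS and LPS, -0.039 between LPS/LPS and control and 0.056 between LPS and control. The 25 small subunit genes stood at -0.082, -0.050 and 0.063 in the same order of comparisons. Without LPS replicate 3 the large subunit genes stood at -0.019 between LPS/LPS and LPS and -0.036 between LPS and control, and the small subunit genes at 0.017 and 0.055. The difference between the subunits was not tested. In LPS/LPS vs LPS the 28 large subunit genes of bacterial type had a median of -0.14 with 5 positive, and the 14 small subunit genes of bacterial type a median of 0.0017 with 7 positive. The 28 members of mitochondrial type had a median of -0.13 with 11 positive. Without LPS replicate 3 these medians were -0.032 with 11 positive, 0.042 with 9 positive and -0.017 with 13 positive. The 15 members above the background reference stood at -0.051 between LPS/LPS and LPS, against 0.015 for the 2207 genes above it, and both medians were -0.0080 without that array.

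Of the 9 members with more than 1 probe set, several gave different values by probe set. The brighter probe set of Mrps18b differed by -0.58 between LPS/LPS and LPS, and its other by 0.11. For Mrpl12, the stalk protein that factors bind and that is also known to bind the mitochondrial RNA polymerase, the brighter probe set gave 0.029 between LPS/LPS and control and the other -0.86. For Mrps18c the values between LPS/LPS and LPS were 0.041 and 0.53. These are differences of means between arrays without a test, and the values of these 3 genes depend on the probe set.

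Other parts of mitochondrial translation were set beside the members from lists of genes. No gene of these lists passed the limma adjusted p of 0.05 in any comparison. Few of these genes had a mean above the background reference. There were 0 of 3 other subunits, 1 of 13 translation factors, 1 of 21 assembly genes and 1 of 19 synthetases. Of the rest there were 0 of 11 genes of mitochondrial DNA transcription and replication, 2 of 9 regulators and 1 of 8 proteases. Genes below the reference cannot be told from background by it. Over all genes, an unadjusted p under 0.05 was found for 8.61% in LPS/LPS vs LPS, 4.70% in LPS/LPS vs control and 6.43% in LPS vs control. Of 7 mitoribosomal subunits whose symbols have another form, 3 were measured: Dap3, Ptcd3 and Gadd45gip1 (0 at an unadjusted p under 0.05). Dap3, a small subunit GTP-binding protein, differed by 0.13 between LPS/LPS and control, and Gadd45gip1, a large subunit protein, by -0.24; single arrays moved both, to 0.032 without LPS/LPS replicate 4 and to -0.070 without LPS/LPS replicate 5. The 13 mitochondrial translation factors had median differences of 0.037 between LPS/LPS and LPS, 0.022 between LPS/LPS and control and 0.070 between LPS and control (-0.035 without LPS replicate 3). Gfm2, which recycles the ribosome after termination, had 2.55, 2.87, 2.32, 2.42 and 2.57 in the LPS/LPS arrays and 2.74, 3.02, 2.95 and 3.07 in the LPS arrays. Its groups overlapped through LPS/LPS replicate 2, and its difference was -0.40 (limma adjusted p = 0.429), with 1 of the 13 factors at an unadjusted p under 0.05.

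The 21 genes of ribosome assembly and ribosomal RNA modification had medians of 0.037, 0.040 and -0.029 in the same order of comparisons. Nsun4, an RNA methyltransferase of ribosome assembly, differed by 0.44 between LPS/LPS and LPS (limma adjusted p = 0.538) and by 0.41 between LPS/LPS and control, and was the 1 gene of its list with an unadjusted p under 0.05 in each (0 in LPS vs control). The 19 mitochondrial aminoacyl-tRNA synthetases and related enzymes had medians of -0.0063, 0.026 and 0.0061. Among them Fars2, the phenylalanyl-tRNA synthetase, differed by 0.37 between LPS and control (limma adjusted p = 0.768; 0.25 without LPS replicate 4), the only one at an unadjusted p under 0.05 in any comparison. The 11 genes of mitochondrial DNA transcription and replication had medians of -0.019, 0.047 and 0.026, and in none of the 3 comparisons did one reach an unadjusted p under 0.05. Polrmt, the mitochondrial RNA polymerase, differed by 0.35 between LPS/LPS and LPS, or 0.16 without LPS replicate 3. Tfam, which packs mitochondrial DNA, differed by 0.45, or 0.27 without LPS/LPS replicate 4.

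The 9 regulators of nuclear genes for mitochondria had medians of -0.074, 0.014 and 0.094 in that order of comparisons (LPS/LPS vs LPS, LPS/LPS vs control, LPS vs control). At an unadjusted p under 0.05 there were 3, 0 and 2 of them, against 8.61%, 4.70% and 6.43% of all genes. The 3 were 2 higher and 1 lower in LPS/LPS, and the 2 were 1 higher and 1 lower in LPS. Esrra, a nuclear receptor that drives such genes, had 5.96, 5.71, 6.06, 5.87 and 5.70 in the LPS/LPS arrays, 5.54, 5.29, 5.16 and 5.36 in the LPS arrays, and 5.66, 5.81, 5.77 and 5.71 in the control arrays. All 4 LPS values lay below every value of both other groups. The difference between LPS/LPS and LPS was 0.52 (SE 0.12, limma adjusted p = 0.177) and that between LPS and control -0.40 (SE 0.13, limma adjusted p = 0.590). Myc, a transcription factor of growth, differed by -0.71 between LPS/LPS and LPS (limma adjusted p = 0.525), and the coactivator Ppargc1a by -0.36 between LPS/LPS and control (limma adjusted p = 0.987), or -0.17 without control replicate 1.

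The 8 mitochondrial proteases of protein quality control had a median difference of 0.24 between LPS and control with all 8 positive, and of -0.11 between LPS/LPS and LPS with 2 positive. At an unadjusted p under 0.05 there were 1 and 2 of them (against 6.43% and 8.61% of all genes), and 0 between LPS/LPS and control (against 4.70%). Afg3l2, a subunit of the m-AAA protease that matures Mrpl32, had 4.09, 4.16, 4.54 and 4.75 in LPS arrays and 3.85, 3.99, 3.68 and 3.96 in control arrays. These groups did not overlap, and the difference was 0.51 (SE 0.17, limma adjusted p = 0.590). Its LPS/LPS values of 3.92, 4.23, 3.91, 4.20 and 3.77 overlapped both. Clpx, which unfolds substrates of the matrix protease ClpP, had 4.11, 4.52, 5.18 and 4.21 in LPS arrays and 4.11, 4.18, 3.32 and 4.25 in control arrays, with LPS replicate 3 the highest. Its difference was 0.54 (limma adjusted p = 0.768), or 0.32 without that array. The median of the 8 proteases between LPS and control was 0.20 without it, with all 8 still positive. The lists were chosen with earlier results of these data known, and their counts are descriptions.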

How the data were processed

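Values were used as deposited, in log2 units, and RMA and Partek 6.6 are named in the submitters' processing notes. RMA gives each probe set a single log2 value from its probes, and signal left from background would compress differences of dim genes. How it handled background and normalization is not given in the sources used here. No scanner files or detection calls were used, and precision is limited by the number of arrays. Probe sets with 1 gene symbol (23521 of 41345) gave 22180 genes, 1 probe set each. Those with several symbols (1814) or none (16010) were left out.

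Differences and moderated standard errors came from limma 3.58.1 in R 4.3.3 (lmFit and eBayes, 3 groups, no covariates), with Benjamini-Hochberg adjustment over all genes. Promoter windows came from RefSeq. Alternatives varied the arrays, probe sets, filter, normalization, centring, weights, moderation and blocks. They also split the arrays into wide and narrow ones, by whether the SD over their log2 values was above 1.328.

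Members named are those with the 3 lowest p-values in each direction of a comparison, those brightest, dimmest, nearest the reference, steadiest or most variable, and those with a special placement. Other names were chosen after their values were seen. The members and lists were chosen with earlier results of these data known.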

Additional observations from a re-analysis of the deposited data

Results flagged for a closer look

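Among 90 sets of arrays examined (29 named members and the members' median deviation, in 3 groups each), 5 held an array far from the rest of its group, and chance gives about 1 in 20. In Mrpl24, control replicate 3 stood at 4.22, against 4.98 to 5.10 in the other 3 control arrays. In Mrpl4, control replicate 2 stood at 4.92, against 4.47 to 4.52 in the others. In Mrps10, control replicate 2 stood at 4.08, against 3.48 to 3.53. In Mrps36, control replicate 4 stood at 3.37, against 3.75 to 3.82. In Mrpl46, LPS replicate 1 stood at 2.86, while the other 3 LPS arrays shared the value 3.40.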

How the results depend on the processing

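The count of members past the limma adjusted p of 0.05 was 0 under all alternatives run in both comparisons with control, as was the F-test count. In LPS/LPS vs LPS it was 0 under all alternatives run other than leaving out LPS replicate 1, where it was 1, and leave-one-out gave 0 to 1. That member was Mrpl24, at -1.57, in a refit that called 96 genes (0.433%). In 340 refits of the 18 differences with the lowest p-values, 339 stayed on their side of the threshold, 1 passed it and 0 turned in sign. The 18 were picked by p-value from these same data and none had passed the threshold, so this count does not measure robustness. Of the 69 other differences of named members, 33 turned in sign under at least 1 alternative, such as Mrpl42 between LPS and control (0.95, and -0.036 without LPS replicate 3) and Mrpl55 (0.30, and -0.030 without that array).

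The members' median difference ran over single arrays left out from -0.015 to 0.16 for LPS vs control (-0.015 without LPS replicate 3), from -0.082 to -0.024 for LPS/LPS vs control, and from -0.17 to -0.0080 for LPS/LPS vs LPS (-0.0080 without LPS replicate 3). Within the wide arrays, a split chosen after seeing the data, it was -0.22 for LPS/LPS vs LPS, -0.16 for LPS/LPS vs control and 0.098 for LPS vs control. Within the narrow arrays it was 0.0089 (1 LPS array), 0.00025 and 0.018. The cause of these changes was not tested.

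Counts over all genes moved more. For LPS vs control (0 as reported), the count was 3 with the replicate block, 3 with genes above the reference alone, 5 with quantile normalization, 30 with array weights, 7 with trend and robust settings, and 0 to 24 with an array left out. For LPS/LPS vs control (2 as reported), it was 0 with only the 2 groups compared, 0 with the replicate block, 0 with all probe sets, 0 without moderation, 4 with quantile normalization, 1 with median centring, 4 with the spread class as a block, and 0 to 3 with an array left out. For LPS/LPS vs LPS (14 as reported), it was 2 with only the 2 groups compared, 4 with the replicate block, 7 with all probe sets, 9 with quantile normalization, 41 with array weights, 0 without moderation, and 5 to 96 with an array left out. The cause was not tested. Deviations of same-numbered arrays correlated at a mean of -0.027 (-0.35 to 0.22 over 12 pairs). Differently numbered arrays of different groups gave a mean of 0.0080 (-0.33 to 0.54 over 44 pairs). No pairing by replicate number was seen, but these correlations over whole arrays cannot exclude one. With the replicate block the members' medians were 0.056 (LPS against control), -0.046 (LPS/LPS against control) and -0.065 (LPS/LPS against LPS), with 0 members called.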
